A study of Mus musculus with 6 samples.

Results

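This report compared mouse intestinal tumor organoids that carry a missense p53 with organoids that carry wild-type p53. Organoids are gel cultures in which epithelial cells form small multicellular bodies. The paper describes round cysts for the wild-type p53 organoids and frequent simple or complex tubes for the missense p53 organoids. The organoids were grown from small intestinal tumors of C57BL/6 mice aged 15 to 20 weeks. From 2 mice per genotype came 2 independently prepared cultures and 2 libraries. All of these organoids carried an Apc allele truncated at codon 716 together with loss of heterozygosity of Apc, so the controls lacked full-length Apc as well. The Trp53 +/+ organoids had wild-type p53, and in the Trp53 R270H/R270H organoids both alleles encoded p53 with the R270H change. That allele is silent until Cre removes a stop cassette. The Cre was an inducible enzyme under the villin promoter, which is active in the intestinal epithelium. The paper induced it with weekly tamoxifen in the mice that carried this allele, and it describes no treatment of Trp53 +/+ mice. What tamoxifen and Cre activity add to the differences between the genotypes was not tested. The labels do not say whether each culture was a single clone. The comparison uses 4 of the 6 libraries of the series. The other 2 are from Trp53 flox/flox organoids, in which the stop cassette had not been removed and both alleles are functionally null, and they are quoted beside a few genes. Of 36172 genes listed, the 9763 with at least 4 RPKM (reads scaled to transcript length and to the size of the library) in at least 1 of the 4 libraries were compared.

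p53 is a transcription factor that cells stabilise after DNA damage and other stress, and it switches on genes for growth arrest, cell death, repair and its own degradation. Codon 270 of mouse p53 lies in the domain that binds DNA, and a missense protein of this kind is made but has lost much of the binding of the wild-type protein. Loss of Apc stabilises beta-catenin, which turns on Wnt target genes in intestinal stem cells and tumors. Stem cells at the base of the crypt give rise to absorptive enterocytes and to the secretory Paneth, goblet, enteroendocrine and tuft cells.

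Poly(A) RNA had been sequenced and mapped to mm10 by the authors, who deposited RPKM values in which nothing is below a floor of 1. A ratio against a genotype at that floor is therefore a lower bound, and in 24053 genes all 4 libraries stood at it. The libraries of a genotype correlated at 0.996 (Trp53 +/+) and 0.993 (Trp53 R270H/R270H) across genes. Differences were tested with limma on log2(RPKM + 1), with Benjamini-Hochberg adjustment over the 9763 genes, and a gene is said to be called at an adjusted p under 0.05. Limma called 3150 genes higher (32.3%) and 2618 lower (26.8%) in R270H/R270H organoids, although 3507 of these calls were under 1.5-fold. For this reason the words rose and fell are kept for genes that were called and whose genotype means also differed at least 2-fold. Under that rule 427 genes rose (4.37%) and 587 fell (6.01%), and these shares are the background for every list below. When the flox/flox libraries shared the estimate of the spread, 638 genes were called higher and 691 lower, and 315 of the 427 and 362 of the 587 were still called. The flox/flox pair was left out of the main fit because a larger spread was known from an earlier report. Its libraries stood at 31.7 and 3.84 RPKM in Apcdd1 and at 1 and 32.7 in Gm11062, although at 1.63 and 2.88 in H19. A lost call can thus reflect the spread of that pair as well as that of the genotypes compared. Genes that rose or fell but lost their call in that fit are named as such, and of the 4754 calls under 2-fold, 652 were kept there. A gene that reached 4 RPKM in a single genotype had its highest library there, so the filter favoured that direction. Of the 427 that rose, 274 had passed the filter through the R270H/R270H libraries alone, and of the 587 that fell, 258 through the +/+ libraries alone. The same numbers are given for most lists where such genes make up much of a count, and those counts are descriptions. The median log2 difference of all genes tested was 0.03.

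**Figure D1:**
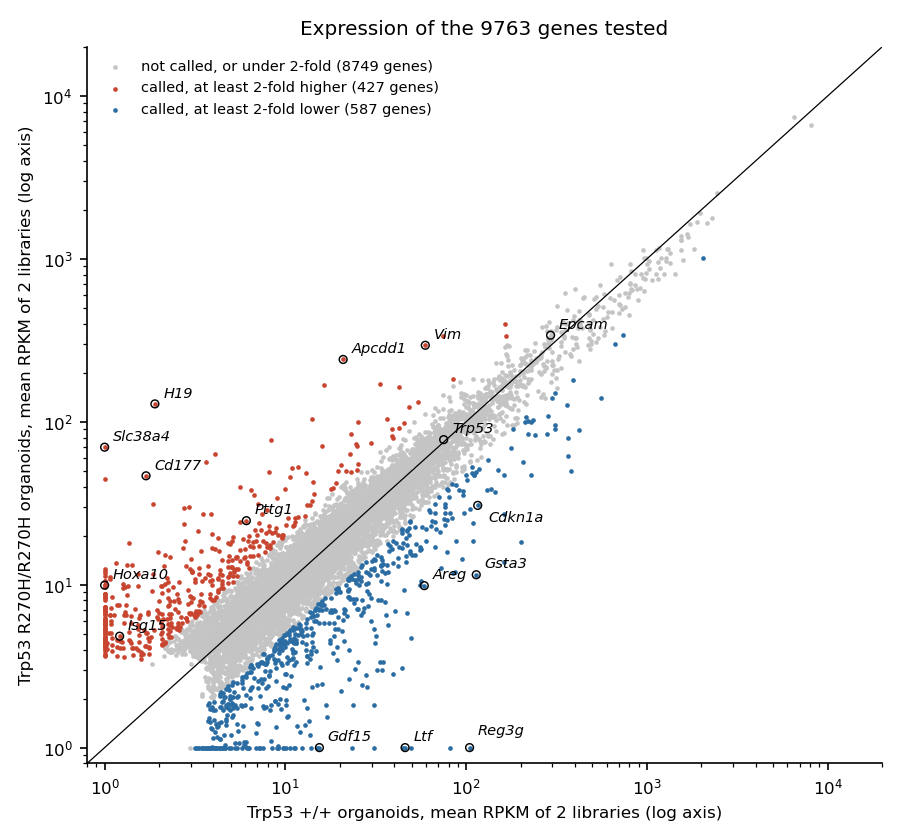
Mean RPKM of the 2 Trp53 +/+ libraries (horizontal log axis) against the 2 Trp53 R270H/R270H libraries (vertical log axis), 1 point per gene. The 427 genes that rose are red, the 587 that fell are blue, the line marks equality, and points on the lower and left edges stand at the floor of 1 RPKM.

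The libraries were epithelial. All 14 genes of an epithelial identity list passed the filter, and 0 of them rose or fell. Epcam, an adhesion protein of gut epithelium, was at 306 and 280.4 RPKM in +/+ against 329.5 and 351 in R270H/R270H organoids, and Vil1, the brush border protein villin, at 108 and 117 against 99.7 and 98.5. All 16 fibroblast and mesenchyme markers listed were under the filter in all 4 libraries, and their summed level was at most 16.3 RPKM in +/+ and at most 16.8 in R270H/R270H, where a sum of 16 would mean that each gene stood at the floor. Of 15 immune markers listed, 13 stood at the floor in each library, Ptprc, Cd3e and Csf1r among them, and the sum was 24.1 to 24.3 RPKM against 16.3 to 16.6. The lysosomal gene Cd68, at 10.2 and 9.87 RPKM against 2.22 and 2.41, made up this difference and was the single immune marker tested. Of 12 endothelial and neural markers, 3 endothelial genes were tested. All 3 had passed the filter through the +/+ libraries alone, so it favoured their direction. The junction gene Cdh5 went from 8.88 and 9.35 RPKM to 1.04 and 1, the coagulation factor Vwf from 8.1 and 6.26 to 1 and 1, and the receptor Tek from 4 and 3.94 to 1.16 and 1.13, while the endothelial markers Pecam1, Kdr and Emcn were at the floor in all 4 libraries. Cd68 and Tek were not called in the fit of all 6 libraries.

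Trp53 itself (chromosome 11, 69580348 to 69591873, GRCm38) did not differ detectably. It stood at 75.9 and 74.3 RPKM in the +/+ libraries and at 72.8 and 82.7 in the R270H/R270H libraries, a log2 difference of 0.05 (standard error 0.07, adjusted p = 0.617). The R270H/R270H values lay on either side of the +/+ pair. RPKM values do not show which allele the reads came from, so the genotype itself was not checked here. In the flox/flox libraries Trp53 stood at 1.73 and 2.48 RPKM. The flox/flox libraries also differed from the 4 compared here in sex-linked genes. Xist stood at 11.8 and 69 RPKM in them and at the floor in all 4. The median of the 4 tested Y genes was -2.74 in both, as a log2 difference from the +/+ mean. Values quoted from flox/flox thus differ from +/+ in more than Trp53.

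Many of the genes that wild-type p53 is known to activate fell. Of 15 tested members of a list of p53 targets in arrest and growth control, 12 fell and 0 rose, against a background of 6.01% falling and 4.37% rising, with a median log2 difference of -1.51. In a list of targets in cell death 7 of 12 fell and 0 rose (median -1.27), and in a list of feedback and repair targets 6 of 19 fell and 0 rose (median -0.58). Ccng1 and Tnfrsf10b stand in 2 of the lists, and of the 44 different genes in all 3, 23 fell and 0 rose. Of the 12, 7 and 6 that fell in the 3 lists, 4, 2 and 2 had passed the filter through the +/+ libraries alone. These lists were drawn up for their response to wild-type p53 in general and were written with earlier results of these data known.

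Cdkn1a, which encodes the cyclin-dependent kinase inhibitor p21, stood at 110.0 and 122 RPKM in the +/+ libraries and at 31.9 and 29.5 in the R270H/R270H libraries, 3.78-fold lower (log2 difference -1.88, standard error 0.07, adjusted p = 3.34e-05 from limma). Ccng1, a cyclin that takes part in the control of p53 itself, had the lowest log2 difference of the 3 lists at -3.39, from 189.7 and 213 RPKM to 18.2 and 18.2, or 11-fold. Gdf15, a secreted factor of the TGF-beta family that stressed cells release, went from 15.9 and 15 RPKM to the floor in both R270H/R270H libraries, at least 15.4-fold lower. In each of these genes the gap between the pairs was several times the gap within a pair. The RNA-binding protein gene Zmat3 was 5.9-fold lower, the stress protein gene Sesn2 4.83-fold and the antiproliferative gene Btg2 3.07-fold. Sesn1, a close relative of Sesn2, was not called, at 4.52 and 5.08 against 5.68 and 5.3 RPKM.

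Among the targets that promote cell death, Phlda3, an inhibitor of Akt signalling, stood at 29.6 and 32.8 RPKM against 3.77 and 5.06, 7.06-fold lower. Bbc3, which encodes the pro-apoptotic protein Puma, was at 4.72 and 4.59 RPKM against the floor, at least 4.65-fold lower. Bax, the pore-forming death effector, was 2.45-fold lower, and Pmaip1, which encodes Noxa, 2.82-fold lower, although Pmaip1 lost its call in the fit of all 6 libraries. The pro-survival gene Mcl1 was called the other way at 1.39-fold higher (43.3 and 44.5 against 63.1 and 58.6 RPKM) and also lost that call. Among the feedback and repair targets, Mdm2, the ligase that degrades p53, was called lower at 1.86-fold (40.5 and 44.2 against 23 and 22.5 RPKM). The death receptor gene Eda2r went from 8.29 and 9.94 RPKM to the floor, the translesion polymerase gene Polk was 5.13-fold lower and the repair nuclease gene Ercc5 2.9-fold lower. Other known targets of this group were not called, among them the repair gene Xpc (10 and 10.2 against 10.9 and 10.8 RPKM) and the nucleotide supply gene Rrm2b (5.88 and 6.07 against 5.95 and 6.02). The phosphatase gene Ppm1d was called higher at 1.29-fold. In the flox/flox libraries, compared with the same +/+ controls, Cdkn1a stood at 11.8 and 27 RPKM, Ccng1 at 25.9 and 24.6, Mdm2 at 14.4 and 16.9 and Phlda3 at 4.16 and 2.99.

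**Figure D2:**
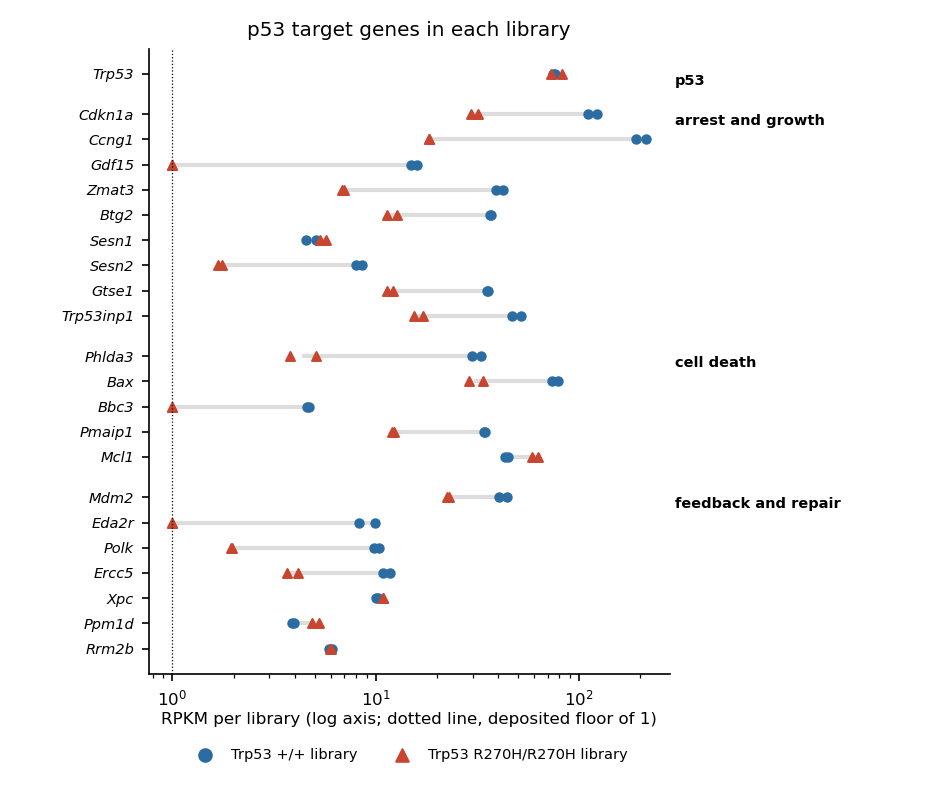
RPKM of Trp53 and 21 p53 target genes on a log axis, with circles for the 2 Trp53 +/+ libraries and triangles for the 2 Trp53 R270H/R270H libraries. The triangles lie left of the circles for most targets, at the floor for Gdf15, Bbc3 and Eda2r, and within or beside the circles for Trp53, Sesn1, Xpc and Rrm2b.

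The p53 element can be read in the DNA upstream of some of these genes. It was searched, on the strand of the gene, as a pair of p53 half-sites with a spacer of at most 13 bases, the C and the G of each core kept and at most 1 other mismatch, in the 250 bases before each start site that RefSeq gives on GRCm38.p6. Such a match was found for 36 of the 7881 tested genes with a promoter in the reference (0.457%), and for 2 of the 36 p53 targets with one, Ccng1 and Cdkn1a. They are shown because both genes fell, with the half-sites in capitals, 5′ to 3′ on the strand of the gene. The Cdkn1a window, chr17:29090908-29090967 on the plus strand, has 31 bases between its half-sites and the start site that the table gives, and the Ccng1 window is chr11:40755442-40755501 on the minus strand.
Cdkn1a: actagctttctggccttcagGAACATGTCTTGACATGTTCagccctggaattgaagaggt
Ccng1: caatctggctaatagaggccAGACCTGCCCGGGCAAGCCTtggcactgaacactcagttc
Binding was not measured in these libraries, and the absence of a match in other targets says no more than that the letters are not in this window.

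The largest single changes lay outside the p53 target lists. Slc38a4, an amino acid transporter gene, stood at the floor in both +/+ libraries and at 71.7 and 68 RPKM in the R270H/R270H libraries, at least 69.8-fold higher (log2 difference 5.15, standard error 0.06, adjusted p = 1.59e-06). H19, a noncoding RNA expressed from the maternal chromosome in the embryo, rose from 1.89 and 1.91 RPKM to 118 and 140.0, 67.9-fold. In the flox/flox libraries, set against the same controls, Slc38a4 stood at 1 and 11.5 RPKM and H19 at 1.63 and 2.88. Cd177, which encodes a surface glycoprotein best known from neutrophils, rose 27.5-fold (2.06 and 1.33 against 42.6 and 50.7 RPKM). Lrrn3, Gm1123, the tubulin gene Tubb4a, the matrix proteoglycan gene Podn, Rfx4, the retinaldehyde dehydrogenase gene Aldh1a3 and Gpr182 followed, at 16.7-fold down to at least 11.3-fold higher. LOC100505096 was at least 44.5-fold higher and 5730457N03Rik at least 12.5-fold. Gdpd3 (11.8-fold) and Apcdd1 (11.6-fold) were also among the 15 largest rises but lost their call in the fit of all 6 libraries. Of the 427 genes that rose, 72 were at the floor in both +/+ libraries, and 101 were at least 5-fold higher.

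The largest fall was that of Reg3g, an antibacterial lectin of the gut, from 111 and 97.9 RPKM to the floor, at least 105-fold lower (log2 difference -5.72, standard error 0.08, adjusted p = 1.82e-06). Lipf, the gastric lipase gene, fell at least 49.9-fold (47.9 and 51.9 RPKM to the floor), Ltf, which encodes the iron-binding protein lactoferrin, at least 46-fold (42.3 and 49.7 RPKM to the floor) and Reg3b at least 44.7-fold. Reg3g and Reg3b are close paralogs, and reads could have been divided between them. Mgmt, the enzyme that removes alkyl groups from guanine in DNA, was at 13.7 and 13.9 RPKM in +/+ and at the floor in both R270H/R270H libraries, at least 13.8-fold lower. Slc28a2, a nucleoside transporter gene, was at least 15-fold lower, Glipr1 14-fold, and Reg1, another lectin of the Reg family, at least 12.3-fold. The unnamed transcripts 9030617O03Rik, 1810030J14Rik and 9930023K05Rik were 16.7-fold to at least 31-fold lower. Gm11062, the heparan sulfate editing gene Sulf2 and AA467197, at 12.9-fold to at least 81-fold lower, lost their call in the fit of all 6 libraries. Of the 587 genes that fell, 60 were at the floor in both R270H/R270H libraries and 97 were at least 5-fold lower.

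**Figure D3:**
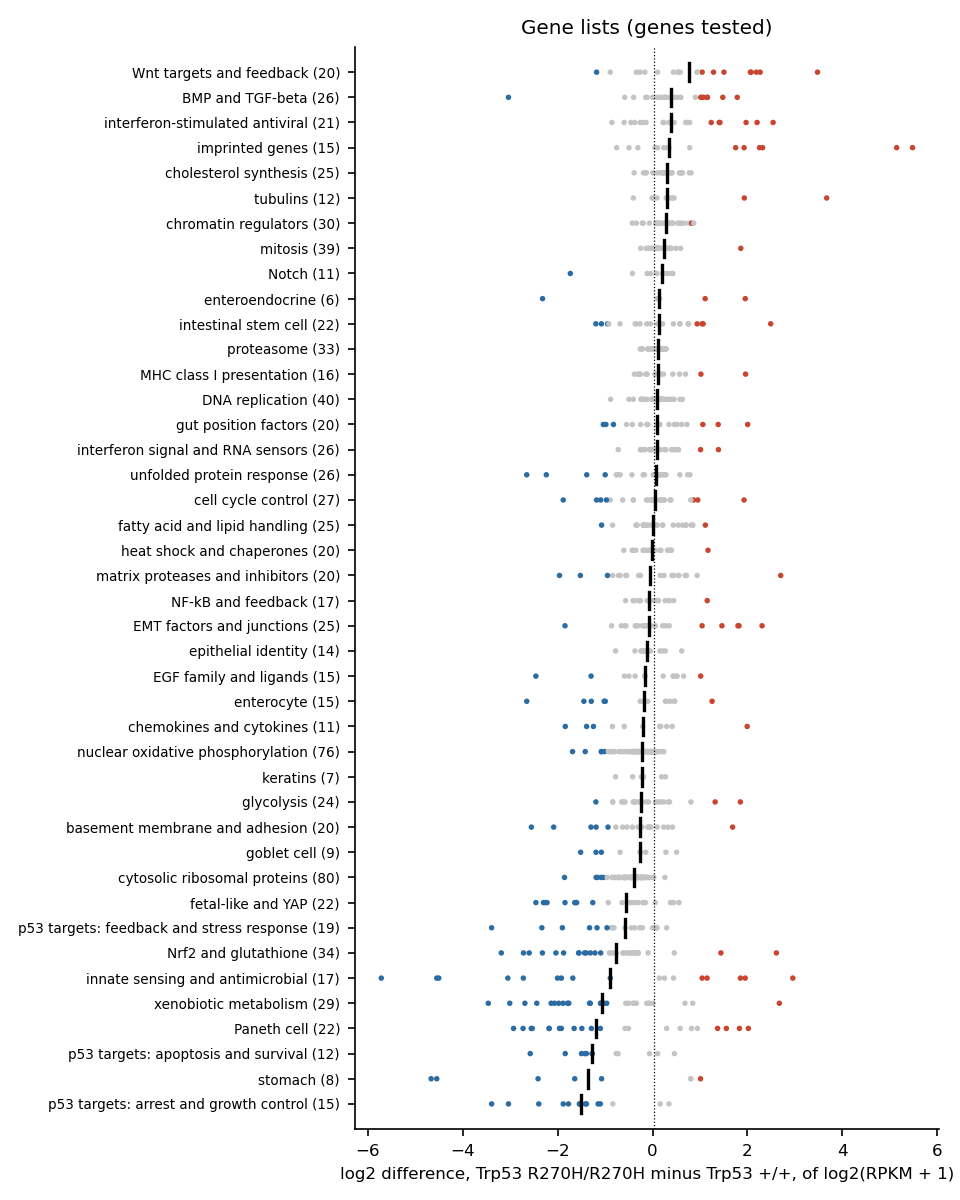
Log2 difference (Trp53 R270H/R270H minus Trp53 +/+, of log2(RPKM + 1)) of every tested member of the lists with at least 6 tested genes, 1 row per list. Red points rose, blue points fell, grey points did neither, black bars are list medians and the dotted line is the median of all genes, 0.03. The medians of the p53 arrest, stomach, p53 cell death, Paneth and xenobiotic lists are the lowest and that of the Wnt list is the highest.

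Wnt targets and feedback genes were mostly higher. Of 20 tested, 15 were above 0, 8 rose, 3 of them having passed the filter through R270H/R270H alone, and 1 fell, with a median log2 difference of 0.76 against 0.03 over all genes. The members that rose are mainly inhibitors that act on the pathway outside or at the surface of the cell. Apcdd1, a membrane inhibitor of Wnt signalling, stood at 23.2 and 18.6 RPKM against 244 and 238. The secreted factors Dkk2, Dkk3, Sfrp5 and Wif1, all of families that bind Wnt ligands or their receptors, were 6.44-fold, 4.45-fold, at least 8.41-fold and 4.43-fold higher. Nkd1, an intracellular feedback inhibitor, was 2.46-fold higher, and Znrf3, a ligase that removes Wnt receptors, 2.16-fold. Lef1, a transcription factor that partners beta-catenin, rose from 1.52 and 1.3 RPKM to 5.93 and 5.71. Apcdd1, Sfrp5, Wif1 and Dkk3 were not called in the fit of all 6 libraries. The classical target Axin2 was called higher at 1.36-fold (136 and 130.2 against 171 and 191 RPKM), also lost in that fit, and Rnf43, a relative of Znrf3, was called lower at 1.27-fold. Myc and Ccnd1, which drive proliferation and are Wnt targets in the gut, went the other way. Myc fell from 97.3 and 104 RPKM to 41.4 and 46.5, and Ccnd1 was called lower at 1.87-fold. Fzd10, a Wnt receptor gene outside the list that the study names, rose 6.7-fold.

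Stem cell markers did not move together. Of 22 tested, 4 rose and 3 fell, of which 2 and 1 had passed the filter through a single genotype, and the median was 0.13. Lgr5, the receptor that marks cycling crypt stem cells, stood at 17.2 and 10.8 RPKM against 10.1 and 12.4, with overlapping pairs (adjusted p = 0.308). Olfm4 was at the floor in +/+ and at 7.98 and 13.1 RPKM in R270H/R270H organoids, while Prom1 fell from 119.5 and 117 RPKM to 51.7 and 50.6. The stem cell factor Ascl2 fell 2.02-fold (21.1 and 17.1 against 8.16 and 10.8 RPKM). Smoc2 and Msi1 rose 2.12-fold and 2.23-fold and Aqp4 fell 2.71-fold, and these 3 lost their call in the fit of all 6 libraries.

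Paneth cells guard the crypt base with antimicrobial peptides, and most of their genes fell. Of 22 tested, 12 fell and 4 rose (median -1.19), and the summed level of the list went from 3177 and 2551 RPKM to 1152 and 1212. Lyz1, the Paneth lysozyme, stood at 408 and 315 RPKM against 125 and 129, and Mmp7, the protease that activates defensins, at 624 and 485 against 138 and 143. The ribonuclease Ang4 was 3.87-fold lower. The alpha-defensin genes divided, since Defa23, Defa26, Defa3, Defa24 and Defa17 were 7.7-, 9.01-, 5.95-, 4.57- and 4.73-fold lower, whereas Defa22, Defa21 and Defa2 were 4.33-, 3.65- and 2.97-fold higher. The alpha-defensins are near-identical copies, so the division of reads among them is uncertain. In bulk RNA, fewer Paneth cells and less of these RNAs per cell cannot be told apart, and the same holds for every cell type below.

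The other secretory and absorptive markers were fewer. Of 20 goblet cell genes listed 9 were tested, of which 3 fell and 0 rose. The mucus-associated genes Tff3 (122 and 98 against 44 and 50.8 RPKM) and Agr2 (223 and 199.6 against 106 and 93.4) were 2.32-fold and 2.12-fold lower, and both lost their call in the fit of all 6 libraries. The mucin gene Muc2 and the secretory factor Atoh1 were under the filter. Of 15 enterocyte genes tested, 5 fell and 1 rose. Apob, the scaffold of lipoprotein particles, had the lowest log2 difference of these at -2.65, and the fatty acid binding protein gene Fabp2 was 2.58-fold lower, but neither was called in the fit of all 6 libraries. Among enteroendocrine genes, 24 of 30 were under the filter. The granin gene Chgb fell from 10.8 and 7.41 RPKM to the floor, and the peptide gene Nts (2.34-fold) and the lectin gene Reg4 (3.96-fold) rose. Of 20 tuft cell genes 2 were tested, and Ptgs1, a cyclooxygenase, rose 2.77-fold while the tuft cell kinase Dclk1 was under the filter.

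Genes of host defence moved in both directions. Of 17 tested genes for innate sensing and antimicrobial proteins, 9 fell and 5 rose, of which 6 and 3 had passed the filter through a single genotype. Beside Reg3g, Reg3b, Reg1, Ltf and Ang4, the complement regulator Cfi (35.1 and 29.1 against 3.24 and 2.73 RPKM), the complement factor Cfb (25.3 and 24.3 against 7.06 and 7.03) and the endotoxin receptors Cd14 (16.7 and 14.4 against 2.81 and 3.46) and Tlr4 (9.9 and 10.5 against 5.35 and 4.74) fell. The endotoxin-binding protein gene Lbp rose 6.08-fold, from 1 and 1.14 RPKM to 7.31 and 5.73, and the receptor gene Tlr2 rose 2.57-fold. Wfdc2 and Lypd8 rose too but lost their call in the fit of all 6 libraries. Of 11 chemokines and cytokines tested, 1 rose and 3 fell, of which 1 and 2 had passed the filter through a single genotype. Cxcl5, which attracts neutrophils, rose from the floor to 7.14 and 6.8 RPKM. Lif and the death ligand Tnfsf10 fell to the floor, from 4 and 4.5 and from 4.33 and 3.22 RPKM. Mif fell 3.46-fold, with 59.5 and 120.1 RPKM in the R270H/R270H libraries. Among 17 genes of NF-kB and its feedback, 0 fell and Nfkbiz rose (2.15 and 1.97 against 5.95 and 5.67 RPKM). It had passed the filter through R270H/R270H alone, and its call was lost in the fit of all 6 libraries.

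Some interferon-stimulated genes, which encode antiviral proteins, rose from low levels. Of 21 tested, 6 rose and 0 fell, and the median was 0.38. In this list 13 were called higher and 4 lower, against 32.3% and 26.8% of all genes. In the fit of all 6 libraries 9 of the 13 and 1 of the 4 kept their call. The 6 that rose had all passed the filter through the R270H/R270H libraries alone. They so had their highest library there, which makes their number a description. Oas1a, a sensor of double-stranded RNA, stood at 1 and 1.14 RPKM in the +/+ libraries and at 9.85 and 12.4 in the R270H/R270H libraries, 10.4-fold higher. Usp18, which removes the ubiquitin-like protein Isg15 from its targets, went from 1.14 and 1.55 RPKM to 11 and 8.67, Ifit2 from 1.16 and 1 to 7.3 and 7, Isg15 from 1 and 1.42 to 4.98 and 4.68, and Ifit1 from 1.22 and 1.12 to 3.76 and 4.49. Oas1g, a near-identical neighbour of Oas1a with which it may share reads, rose from the floor to 3.83 and 4.94 RPKM. These levels are a few RPKM above the floor of the table, so the folds are sensitive to it. Ifitm3, which blocks entry of viruses and was by far the more abundant, was called the other way at 1.52-fold lower (1042 and 898 against 616 and 659.7 RPKM), and Lgals3bp was called 1.82-fold lower.

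The lists of genes around this response were mixed. Of 26 genes for interferon signalling and RNA sensing, 2 rose and 0 fell, the RNA helicase sensor Ddx58 (5.8 and 5.45 against 17.3 and 15.5 RPKM) and Irf9 (2.28-fold), of which Irf9 was not called in the fit of all 6 libraries. Irf7, a factor that amplifies the response, was not called (4.23 and 4.83 against 4.37 and 6.04 RPKM). Of the 16 interferon-induced GTPases listed 3 were tested, and Igtp and Irgm2 rose 3.19-fold and 2.94-fold, both having passed the filter through R270H/R270H alone. Among 16 tested genes of class I antigen presentation H2-Q10 (4.36 and 4.09 against 17.8 and 21 RPKM) and H2-Q4 rose and 0 fell, although class I genes are close paralogs. H2-K1 was called 1.24-fold lower and H2-D1 was not called.

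The interferon-stimulated response element was searched as GAAANNGAAA on both strands in the 250 bases before the start sites. It was found for 227 of 7881 tested genes (2.88%), for 17 of 323 genes that rose (5.26%) and for 11 of 445 that fell (2.47%). In the 3 interferon lists 12 of 43 genes with a promoter held it (27.9%), among them 6 of the 9 that rose. These 6 windows are shown on the strand of the gene with the motif in capitals, and those of Ifit1, Isg15, Oas1a and Oas1g hold it more than once. The coordinates are chr19:34640784-34640833 for Ifit1, chr4:156200855-156200904 for Isg15, chr5:120907526-120907559 for Oas1a, chr5:120887614-120887645 for Oas1g, chr11:58199502-58199551 for Igtp and chr11:58214893-58214942 for Irgm2, with Ifit1, Igtp and Irgm2 on the plus strand.
Ifit1: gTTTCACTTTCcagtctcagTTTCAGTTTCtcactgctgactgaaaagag
Isg15: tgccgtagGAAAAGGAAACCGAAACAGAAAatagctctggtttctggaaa
Oas1a: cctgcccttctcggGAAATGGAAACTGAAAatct
Oas1g: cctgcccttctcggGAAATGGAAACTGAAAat
Igtp: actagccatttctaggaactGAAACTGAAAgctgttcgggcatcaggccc
Irgm2: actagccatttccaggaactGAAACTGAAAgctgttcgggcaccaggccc
The pairs Oas1a and Oas1g, and Igtp and Irgm2, are neighbours in the genome with nearly the same promoter letters, so they are not independent cases. The motif also stood before genes that were not raised, such as Bst2, called 1.38-fold lower.

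Genes of the fetal-like and regenerative state of the gut, many of them driven by YAP, were mostly lower. Of 22 tested, 18 were below 0, 9 fell and 0 rose (median -0.56). Ly6a, the surface protein Sca-1, stood at 388 and 452 RPKM against 88.1 and 89.7, and Areg, a ligand of the EGF receptor, at 57.3 and 60.1 against 9.33 and 10.4, 5.95-fold lower. The interleukin-1 receptor antagonist gene Il1rn was 5.34-fold lower and the mesothelin gene Msln 3.67-fold. Clu (4.88-fold), Anxa10 (at least 5.25-fold), Sprr1a (3.4-fold) and Spp1 (4.92-fold) were also lower, with calls that the fit of all 6 libraries did not make. The direct YAP targets Ctgf and Cyr61 were called lower at 1.43-fold and 1.63-fold, both lost there. Of 8 tested genes of the stomach list 5 fell and 1 rose (median -1.36). These 5, Lipf, Ltf, Gkn3, Anxa10 and Bhlha15, had all passed the filter through the +/+ libraries alone. They mark different cells of the stomach and other organs. Gkn3 and Anxa10 lost their call in the fit of all 6 libraries. The aspartic protease gene Ctse was called higher at 1.75-fold.

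Genes that mark position along the gut and the embryo differed in small numbers. Of 20 regional transcription factors tested, 3 rose and 3 fell, of which 2 and 1 had passed the filter through a single genotype. Gata4, which defines the proximal intestine, stood at 32.3 and 32.1 RPKM against 13.7 and 16.8, and Gata5 was 2.11-fold lower. Their relatives Gata6 (6.85 and 6.41 against 15 and 14.8 RPKM) and Gata2 (from the floor to 6.86 and 7.21) rose. Onecut2 rose and Pdx1 fell with calls that were lost in the fit of all 6 libraries. Cdx2 and Hnf4a, which maintain intestinal identity, were not called. Of 41 Hox cluster genes listed, 3 passed the filter, Hoxa9, Hoxa10 and Evx1 at the end of the Hoxa cluster, and all 3 went from the floor in +/+ to 6.42 and 5.23, 10.1 and 9.72, and 6.1 and 5.53 RPKM. A gene that passed through R270H/R270H alone had its highest library there, so this count is a description.

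Imprinted genes, which are expressed from the copy of a single parent, included H19 and Slc38a4, described above. Of 15 tested, 6 rose, 3 of them having passed the filter through R270H/R270H alone, and 0 fell, and the median of the list was 0.35. The paternally expressed neighbours Peg3 and Zim1 rose, Peg3 from 32.2 and 34.2 RPKM to 182 and 158 and Zim1 from 2.63 and 2.81 to 18 and 15.6. Cdkn1c, which encodes the kinase inhibitor p57, rose 4.28-fold and Asb4 3.67-fold, and Asb4 was not called in the fit of all 6 libraries. Igf2, which lies next to H19, was under the filter, at the floor in +/+ and at 3.79 and 3.80 RPKM in R270H/R270H organoids, and the imprinted genes Gnas, Impact and Snrpn had log2 differences of 0.05, 0.35 and 0.24. The values do not tell the parental copies apart. Among 30 chromatin regulators tested 1 rose, the DNA demethylase gene Tet2 at 2.01-fold, a call lost in the fit of all 6 libraries, and 0 fell. The DNA methyltransferase gene Dnmt3a was called 1.84-fold higher and Tet3 1.9-fold.

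Genes of mesenchymal cells and of cell junctions showed a mixed picture. Of 25 tested, 5 rose, 3 of them having passed the filter through R270H/R270H alone, 1 fell, and the median was -0.07. Vim, the intermediate filament of mesenchymal cells, stood at 69 and 50 RPKM against 306 and 284, 4.96-fold higher. The cadherin genes Cdh3 (at least 6.08-fold) and Cdh11 (at least 4.51-fold) rose from the floor, and S100a4 rose 4.62-fold. Fn1, which encodes fibronectin, rose 2.25-fold, and Vim and Fn1 lost their call in the fit of all 6 libraries. The epithelial cadherin Cdh1 was not called, at 212 and 220.3 against 209 and 201 RPKM. The transcription factors that drive epithelial-mesenchymal transition, Snai1, Snai2, Twist1, Twist2, Zeb1 and Zeb2, were under the filter. Among 12 tubulins 2 rose, Tubb4a (4.09 and 4.02 against 61.8 and 65 RPKM) and Tuba1a (46.3 and 38.4 against 173 and 155). Of 7 keratins tested 0 rose or fell, and Krt19 was called 1.71-fold lower.

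Genes for contact with the matrix were mostly lower. Of 20 tested genes for basement membrane and adhesion, 15 were below 0, 5 fell and 1 rose, and 3 of the 5 had passed the filter through +/+ alone. Col4a1 and Col4a2, which lie next to each other and encode the main chains of basement membrane collagen, went from 13.9 and 12.9 RPKM to 1.27 and 1.66 and from 8.61 and 9.09 to 1.09 and 1.58. Itgb4, the integrin subunit of hemidesmosomes, was 2.56-fold lower, and Itga2 and Itga5 were 2.38-fold and 2.19-fold lower with calls that the fit of all 6 libraries did not make. Itgb5, a subunit of a vitronectin receptor, rose from 4.04 and 4.51 RPKM to 15.1 and 16.9. Of 20 tested proteases and inhibitors, the secreted serine protease gene Htra1 rose 8.55-fold (2.71 and 2.81 against 26.4 and 20.9 RPKM), while Mmp7, Plaur, the urokinase receptor, and Ctsl, a lysosomal protease, fell. Mmp14, the membrane-bound collagenase, was called higher at 1.94-fold (34.1 and 33 against 65.1 and 65.5 RPKM). Ctsl and Mmp14 lost their call in the fit of all 6 libraries.

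Signals between cells differed by family. Of 26 tested BMP and TGF-beta genes, 7 rose and 1 fell, with a median of 0.40, and 5 of the 7 had passed the filter through R270H/R270H alone. The ligand genes Bmp4 (4.22 and 3.98 against 17.6 and 15.6 RPKM), Inhbb (from the floor to 4.78 and 4.39) and Tgfb2 (3.8 and 4.02 against 11 and 9.07) rose, as did the inhibitor Smad7 (2.64-fold) and the protease Bmp1 (2.4-fold). Bmp2 and Tgfb3 rose with calls that were lost in the fit of all 6 libraries, and the member that fell was Gdf15. Id1 and Id3, which BMP signals induce, had log2 differences of -0.14 and -0.11, while Id2 was at 0.90. Of 15 tested EGF family ligands, receptors and related growth factor genes, Areg and the ligand Hbegf fell and Pdgfa, the platelet-derived growth factor A chain, rose 2.08-fold. Hbegf stood at 5.9 and 6.03 RPKM against 1.96 and 1.72. Of 11 Notch genes 1 fell, the ligand gene Jag2 (25 and 25.6 against 5.31 and 8.93 RPKM), and 0 rose.

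**Figure D4:**
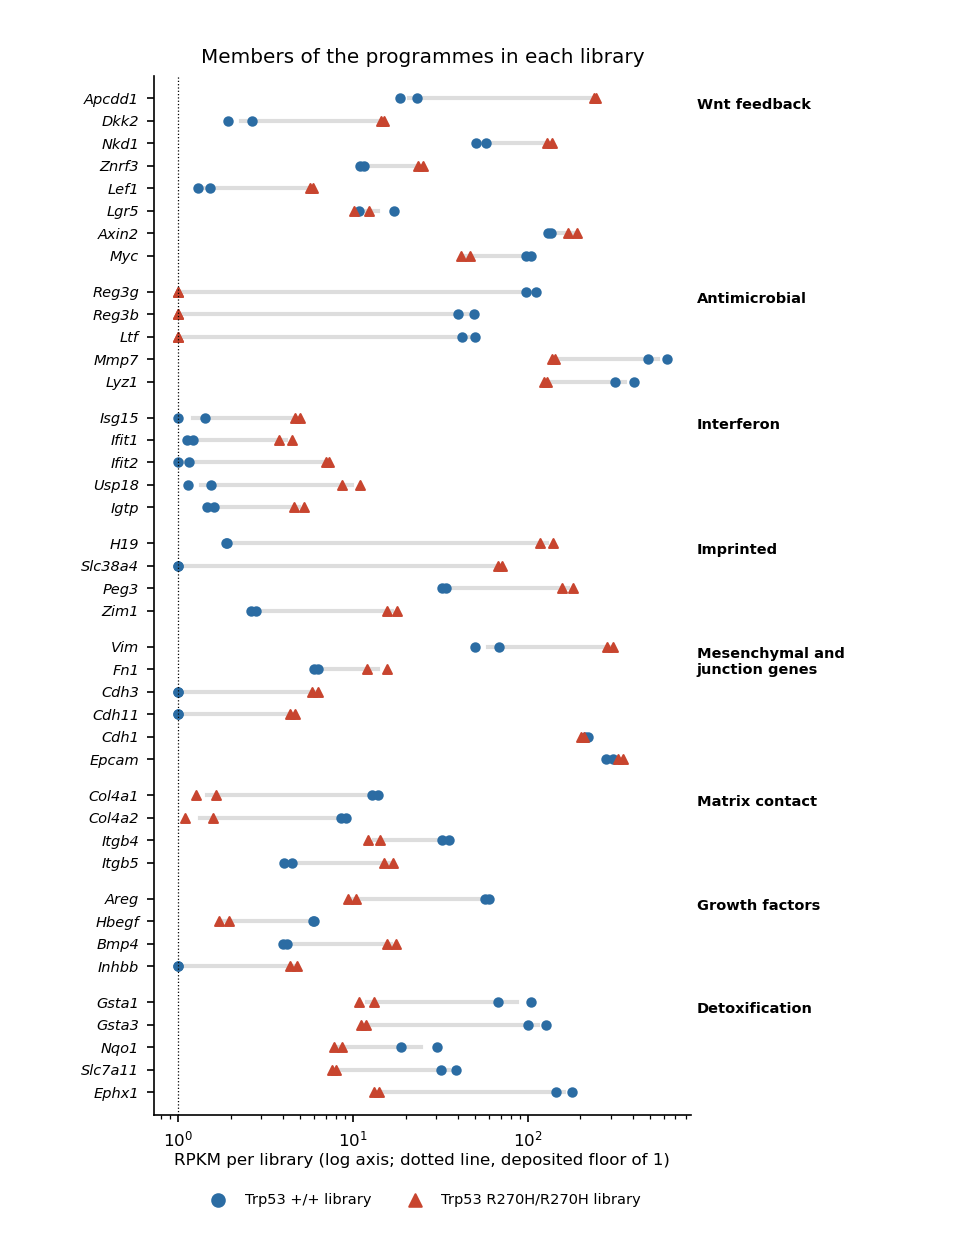
RPKM on a log axis of 41 genes named in the text, grouped by programme, with circles for the 2 Trp53 +/+ libraries, triangles for the 2 Trp53 R270H/R270H libraries and grey lines between genotype means. The pairs are apart in most genes shown and overlap in Lgr5.

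Proliferation genes differed by small amounts. Of 40 replication genes 0 rose or fell, and of 39 mitotic genes 1 rose and 0 fell, with medians of 0.10 and 0.23. Without R270H/R270H replicate 2 or replicate 1 the replication median was 0.06 or 0.16, and with GC and length trends removed the mitotic median was 0.14. Mki67, a general marker of cycling cells, stood at 64.1 and 65.8 RPKM against 84.1 and 73, and Top2a at 168 and 163 against 174 and 168. Pttg1, which encodes securin, the protein that holds sister chromatids together until anaphase, rose from 6.04 and 6.13 RPKM to 24.2 and 25.3, 4.06-fold. It was the exception in a list where 22 of 39 members were called higher, 20 of them by less than 1.5-fold, and 0 lower, against 32.3% and 26.8% of all genes. In the 27 tested genes of cell cycle control, Cdkn1c, E2f2 and Cdkn2a rose and Cdkn1a, Myc, Ccnd2 and Rb1 fell. Of the 3 that rose, 2 had passed the filter through R270H/R270H alone. Ccnd2 went from 198 and 239.9 RPKM to 103 and 100.3, and Rb1, the retinoblastoma gene, from 18.7 and 20.6 to 9.88 and 9.13. Cdkn2a, Ccnd2 and Rb1 lost their call in the fit of all 6 libraries.

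Many detoxification genes fell. Of 29 tested genes of xenobiotic metabolism 17 fell and 1 rose (median -1.06), and 9 of the 17 had passed the filter through the +/+ libraries alone. Ephx1, the microsomal epoxide hydrolase, stood at 145 and 179.6 RPKM against 13.3 and 14.2, 11.8-fold lower. The carboxylesterase genes Ces2e (11.1-fold), Ces2c (6.62-fold) and Ces2a (5.77-fold), the cytochrome P450 gene Cyp2c55 (61.5 and 108 against 12.6 and 11 RPKM) and the sulfotransferase gene Sult1c2 (at least 7.56-fold) fell with it. The member that rose was Aldh1a3. Of 34 genes of glutathione metabolism and of the oxidative stress factor Nrf2, 13 fell and 2 rose (median -0.78). In this list 30 were called lower, against 26.8% of all genes. Nfe2l2, which encodes Nrf2 itself, fell from 142 and 159 RPKM to 53.3 and 47.8, and its target Nqo1 from 18.8 and 30.3 to 8.62 and 7.81. Slc7a11, the cystine importer, was 4.52-fold lower, Cbr3 at least 9.03-fold, and the glutathione transferase genes Gsta1, Gsta2 and Gsta3, which are close paralogs, 7.2-fold, at least 11.4-fold and 9.89-fold lower. Gsta3, Mt1 and Mt2 lost their call in the fit of all 6 libraries. The metallothionein Mt3 (1.38 and 1.27 against 13.4 and 13 RPKM) and the secreted peroxidase gene Gpx3 (at least 4.44-fold) rose. Both had passed the filter through R270H/R270H alone.

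A few genes of the unfolded protein response were lower as well. Of 26 tested genes of the unfolded protein response 4 fell and 0 rose, and the list median was 0.07. The 4 are known targets of the factor Atf4, the pseudokinase gene Trib3 (24.6 and 24.2 against 2.68 and 3.44 RPKM), the glutathione-degrading enzyme Chac1 (22.3 and 22.6 against 3.39 and 4.61), asparagine synthetase Asns (214 and 228 against 85.5 and 82) and the death factor Ddit3 (15.7 and 16.3 against 6.93 and 8.14). Atf4 itself was called lower at 1.67-fold. The endoplasmic chaperone Hspa5 was not called (302 and 271 against 306 and 295 RPKM). In glycolysis Pdk4, a brake on pyruvate oxidation (9.77 and 10.2 against 42.3 and 35.2 RPKM), and Ldhb rose and Hk1 fell. Hk1 lost its call in the fit of all 6 libraries. Of 25 cholesterol synthesis genes 0 rose or fell, although 17 were called higher and 2 lower, against 32.3% and 26.8% of all genes (median 0.31). In the fit of all 6 libraries 4 were called higher. Of 25 lipid genes Scd1, the stearoyl desaturase, rose 2.18-fold, with a call lost in that fit, and the nuclear receptor Pparg fell 2.23-fold. In the lists of 33 proteasome and 20 chaperone genes 0 fell, and 1 rose, the small heat shock protein gene Hspb1 (1 and 1.53 against 3.64 and 4.51 RPKM), a call lost in the fit of all 6 libraries.

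Genes of the ribosome and of the respiratory chain were lower by small amounts that differed between the R270H/R270H libraries. Of 80 cytosolic ribosomal protein genes 58 were called lower and 1 higher, against 26.8% and 32.3% of all genes. Their median was -0.38 and 5 fell, while in the fit of all 6 libraries 0 were called at all. Their summed level was 63759 and 60736 RPKM in the +/+ libraries and 44968 and 51788 in the R270H/R270H libraries. R270H/R270H replicate 1 lay below replicate 2 in 77 of the 80 genes, as in Rpl36 (309 and 251 against 48.9 and 118 RPKM). Of 76 nuclear genes of oxidative phosphorylation 34 were called lower and 2 higher, against the same 26.8% and 32.3%. In this list 5 fell, and replicate 1 lay below replicate 2 in 61. Across all genes the difference between the R270H/R270H replicates moved with GC content. Of 5 groups of genes of equal size by GC share of the transcript, its median was 0.06 in the lowest and -0.17 in the highest (replicate 1 minus replicate 2, log2), against -0.00464 and 0.04 between the +/+ replicates. The median genotype difference went from 0.11 to -0.12 over the same groups, and from -0.11 to 0.15 between the shortest and the longest of 5 such groups by transcript length. When trends on GC and length were removed in each library, an alternative added after seeing the data, the ribosomal median was -0.22 and that of oxidative phosphorylation -0.09. The part of RNA quality or library preparation in these lists was not tested.

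Genes of chromosome 13 were lower as a group. Of 344 tested, 54 had a log2 difference above 0 (15.7%), 6 rose and 42 fell (12.2%). The median log2 difference was -0.33, and the median ratio of genotype mean RPKM, taken without the pseudocount, was 0.775. The median log2 differences of the other autosomes and of the X chromosome lay between -0.03 and 0.10. The shift was present in both R270H/R270H libraries, at -0.29 and -0.38 against the +/+ mean. It ran along the chromosome, with medians from -0.24 to -0.51 in 11 of 12 steps of 10 Mb and -0.06 from 20 to 30 Mb. Without chromosome 13, an alternative also chosen after seeing the data, 421 genes rose and 545 fell. Among the genes of the lists 29 lie on chromosome 13, Polk, Itga2, Ctsl and Ccnb1 among them. Of the 4 tested genes of the Y chromosome all 4 were called lower, against 26.8% of all genes. Eif2s3y, a translation factor subunit, fell from 66.9 and 67.8 RPKM to 22.9 and 25.5, and the others, Kdm5d, Ddx3y and Uty, were 1.71-fold, 1.54-fold and 1.38-fold lower. Chromosome copy number was not measured.

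**Figure D5:**
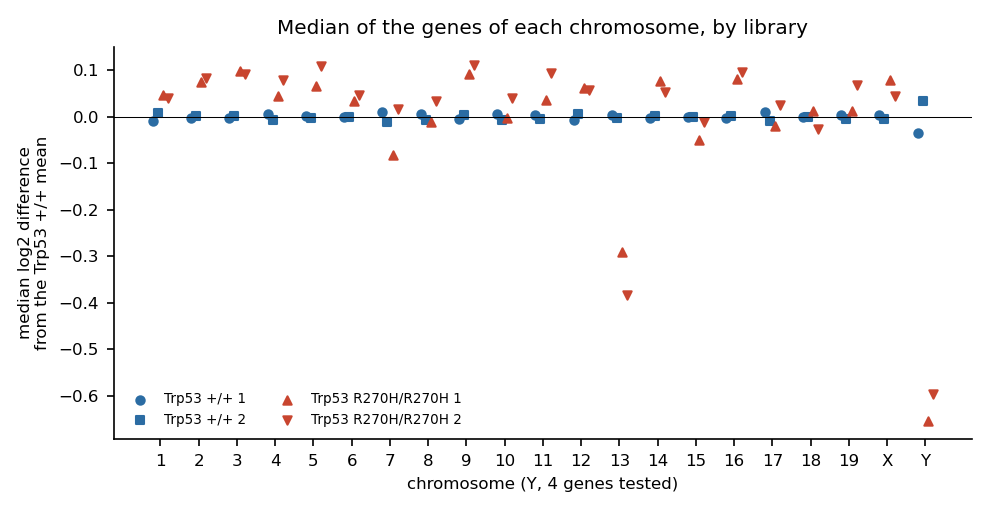
Median log2 difference from the Trp53 +/+ mean of the tested genes of each chromosome, with 1 symbol per library (blue, Trp53 +/+, and red, Trp53 R270H/R270H). Chromosome 13 lies at -0.29 and -0.38 in the R270H/R270H libraries, the 4 genes of Y lie lower still, and the others stay near 0.

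Genes near Trp53 differed about as often as genes elsewhere. Among the 96 other genes tested within 5 Mb of it 2 rose and 8 fell (10.4%), and over all genes 10.4% rose or fell. Ctns and Myh10 rose, and Aspa, Atp2a3, Cd68, Ggt6, Pitpnm3, Rnasek, Spns2 and Tm4sf5 fell, of which Atp2a3, Cd68 and Rnasek lost their call in the fit of all 6 libraries. Cd68 lies 72.3 kb from Trp53, so what its fall owes to the cells and what to the engineered locus cannot be told apart here.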

How the data were processed

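Poly(A) RNA of 6 organoid cultures was sequenced from strand-specific libraries, and the 2 Trp53 +/+ and 2 Trp53 R270H/R270H libraries were compared. The authors deposited 1 table of RPKM values from StrandNGS on mm10, floored at 1. The version, the gene annotation and the read filters are not given in the sources used here. A gene was kept where any of the 4 libraries reached 4 RPKM, and log2(RPKM + 1) was tested with limma 3.58.1 (R 4.3.3, trend in the prior variance, Benjamini-Hochberg adjustment). Genes were named by rule: the 15 largest rises and falls by ratio among genes called and at least 2-fold apart, members of fixed gene lists, and genes the study names. The members and lists were chosen with earlier results of these data known. Some genes that met the rule are not reported here.

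RPKM holds no read counts. In genes of at most 150 bases, steps within 0.05 of a whole read put the depth near 46.9 M reads in +/+ replicate 2 and near 44.24 M and 45.4 M in the R270H/R270H libraries, from 11 to 16 values each, while +/+ replicate 1 gave no clear step. The 2 mice per genotype were separate, and with 2 against 2 an exact two-sided permutation test cannot go below 0.333, so single genes rest on the moderated spread of limma. On simulated data of 9763 genes the test found 98 of 100 genes given a log2 change of 1 and 100 of 100 given a change of 2, and called 20 unchanged genes. That simulation changed 200 genes and had independent noise, no floor and no GC or length trend, whereas 59.1% of the real genes were called. It therefore does not give the error rate of the calls reported here. Gene positions and promoters came from RefSeq on GRCm38.p6, and 80.7% of the genes tested had a promoter there. Transcript length and GC content were those of the longest GENCODE transcript of each gene. Alternatives changed the pseudocount, the filter, the scaling, the libraries fitted and the replicate block. Pandas 2.3.3 and matplotlib 3.10.9 made the summaries and plots.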

Additional observations from a re-analysis of the deposited data

How the results depend on the processing

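With 2 libraries per genotype, RPKM without counts and a floor of 1, small differences between low genes are poorly resolved, and the spread rests on few libraries. Of 3150 genes called higher and 2618 lower, the fit of all 6 libraries called 638 and 691, and the number at least 2-fold lower went from 587 to 362 (higher, 427 to 315). Leaving out 1 library at a time gave 1440 to 2640 genes called higher, 1325 to 2559 lower, 405 to 449 at least 2-fold higher and 513 to 701 at least 2-fold lower. The lone sample is assumed to vary like the others. Other pseudocounts, filters and scalings kept all 4 counts within 1.5 times. Median-of-ratios scaling moved the median of all genes to -0.0036 and the share of calls that were higher from 54.6% to 48.7%.

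No named gene that was called changed direction under these alternatives. Among named genes that rose or fell, Cdkn2a, Mif, Mt1, Mt2, Rnasek and Rpl36 lost their call without either +/+ library, Ascl2 without +/+ replicate 1, Mt2 without R270H/R270H replicate 1, and Pdgfa and Cdkn2a without R270H/R270H replicate 2. The replicate numbers share no stated source, and deviations of same-numbered libraries correlated at -0.297. With the replicate block 2595 genes were called higher and 2261 lower, 427 and 585 of them at least 2-fold. With the numbers crossed, an alternative chosen after seeing the data, 3357 and 2919 were called. Removing GC and length trends, also chosen after seeing the data, left 404 genes at least 2-fold higher and 525 lower and took the ribosomal median from -0.38 to -0.22. It moved 32 of 49 list medians by more than the spread between replicates.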
